A study of Rattus norvegicus with 3 samples.

Results

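p53 targets of growth arrest and repair, together with the Gadd45 genes, were followed in NR8383 cells, an established rat alveolar macrophage line, after exposure to single-wall carbon nanotubes. The group was defined by name as 10 genes: Cdkn1a, Mdm2, Gadd45a, Gadd45b, Gadd45g, Ddb2, Ccng1, Btg2, Plk2 and Phlda3. Probes of 9 of them were found among the 15925 genes named on the array, 12 probes in all, whereas Btg2, an antiproliferative gene, had no named probe and was not analysed here. Of the 9 genes, 6 had 1 probe and 3 had 2 probes.

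The series held 3 samples, 1 for each group. One culture group received nanotubes called CNT-1 and another received CNT-2, each at 0.1 mg/mL for 24 h in medium with 1 mg/mL bovine serum albumin, and the third served as control for both. The labels describe the control once as untreated and once as a solvent control with albumin, so whether control cells received albumin stays unknown, and the sources used here do not say what sets the nanotubes apart. All groups were the same cell line, with no genetic change named in the labels. RNA was hybridised to 1-colour Agilent arrays. The deposited values are differences on a log scale presumed to be log2, on which 1 unit is 2-fold. Judged from the values, since the sources do not state it, each probe appears centred on a reference that matches no column exactly. The control column lay close to that reference, with 72.6% of gene probes within 0.1 of 0. Its values near 0 and its small spread may follow from this. The deposited values carry no expression level, so levels were not compared between genes. It could therefore not be checked whether macrophage markers were expressed. With 1 column per group, no difference below has a replicate check or a test, and "higher" and "lower" refer to the 3 columns, not to the conditions in general. An SD beside the value of a gene is the SD over its probes, which is technical spread within the arrays.

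The transcription factor p53 is stabilised after DNA damage and other stress, when its degradation by the ubiquitin ligase Mdm2 is relieved, and it then raises transcription of genes that halt the cell cycle, repair DNA or trigger apoptosis. Cdkn1a, which encodes the inhibitor p21 of cyclin-dependent kinases, is its best known arrest target, and Mdm2 is both target and inhibitor, closing a feedback loop. The Gadd45 proteins are small stress-induced proteins that bind the replication clamp, the mitotic kinase Cdk1 and the kinase Map3k4 upstream of p38. Gadd45a is a p53 target that is also induced without p53, while Gadd45b and Gadd45g respond mainly to cytokine and stress signals, among them NF-kappaB.

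Over all 15925 genes the median difference from control was -0.04 in CNT-1 and 0.04 in CNT-2. At least 1 log2 unit above control were 1.16% of all genes in CNT-1 and 10.1% in CNT-2. Of the 9 measured members 1 passed this line in CNT-1 and 5 in CNT-2. None lay 1 unit below control in either, beside 2.15% of all genes in CNT-1 and 6.56% in CNT-2. The median of the members was 0.27 in CNT-1 and 1.35 in CNT-2. The 5 members in CNT-2 were the 3 Gadd45 genes, Ddb2 and Ccng1, and the 1 member in CNT-1 was Plk2, which was not among them. Both differences share the control column. The members had been chosen with earlier results of these data known, and these counts describe the members without comparing them with other lists of genes. Above 0 were 7 of 9 members in CNT-1, beside 42.1% of all genes, and 8 of 9 in CNT-2, beside 53.5%. The 2 members below 0 in CNT-1, Gadd45a and Gadd45b, turned positive under 1 and 3 of 8 alternative settings.

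**Figure D1:**
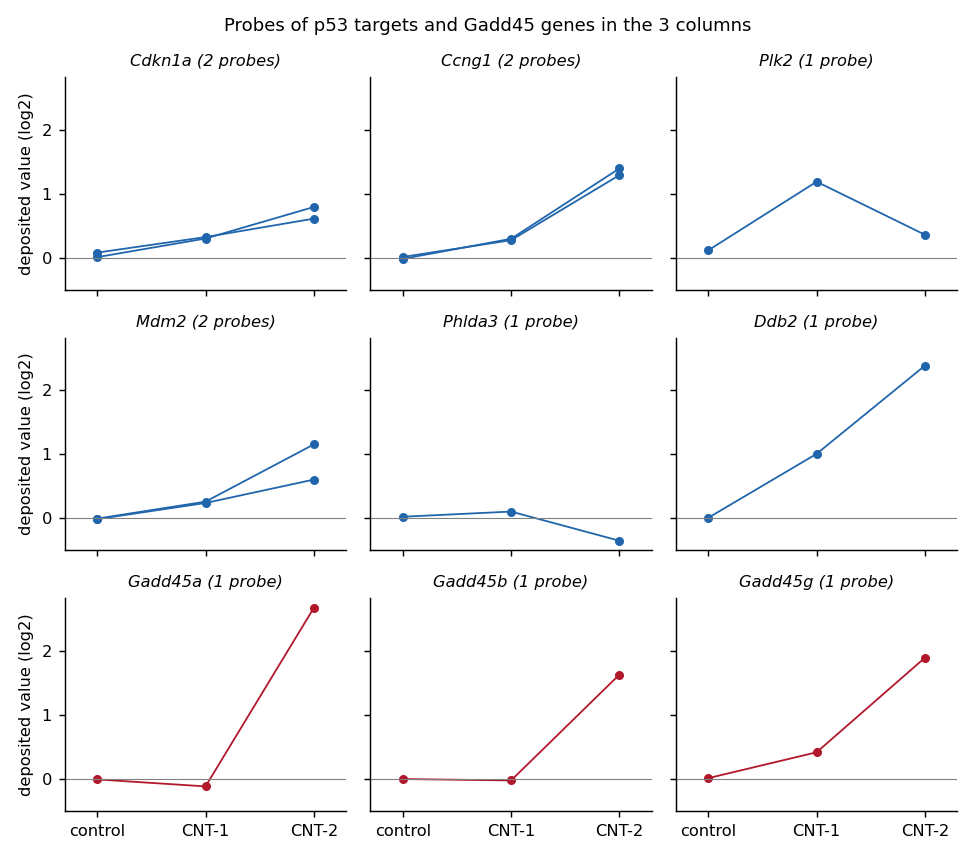
Deposited value (presumed log2, apparently centred per probe) of each of 12 probes in the control, CNT-1 and CNT-2 columns, 1 panel per gene. Lines join the values of 1 probe, with no order implied between the exposures. The control values lie between -0.02 and 0.11, the 3 Gadd45 genes (red) stand at 1.63 to 2.67 in CNT-2, and Plk2 is highest in CNT-1.

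Cdkn1a was modestly higher after both exposures. Its first probe read 0.007 in control, 0.30 in CNT-1 and 0.79 in CNT-2, and its second probe read 0.08, 0.32 and 0.61 in the same order. Both probes thus placed the control lowest and CNT-2 highest. The gene lay 0.27 ± 0.03 above control in CNT-1 and 0.66 ± 0.18 in CNT-2 (probe SD, 2 probes), so p21 mRNA passed the 2-fold line in neither. The CNT-2 value shrank to 0.22 with the 75th percentile subtracted, 0.29 after quantile normalization and 0.43 with spike-in centring. In CNT-2 17.8% of all genes were further above control than Cdkn1a, and in CNT-1 11.5% were.

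The region before the Cdkn1a start is shown because it holds a match to the p53 decamer, the 10-base unit that p53 elements carry as a pair. It is the stretch chr20:7150682-7150819, plus strand (GRCr8, from RefSeq), which ends where an alternative transcript of the gene begins, and capitals mark the decamer, 201 to 192 bases before the start of the reference transcript.
Cdkn1a: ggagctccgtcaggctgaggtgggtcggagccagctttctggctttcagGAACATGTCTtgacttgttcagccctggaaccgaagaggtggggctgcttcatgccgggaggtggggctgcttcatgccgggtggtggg
The decamer matched the pattern at all 10 positions, and the 10 bases that follow it, tgacttgttc, missed it at 1 position. Promoters were available for 9 of the 10 listed members, among them the unmeasured Btg2, and none for Ddb2, which was not searched. A decamer lay in the 250 bases before the start in 3 of these 9, those of Cdkn1a, Ccng1 and Gadd45a. It lay in 6.64% of all 33469 promoters, with both strands searched. This pattern and those below were chosen after the sequences were seen, so the counts beside the shares are descriptive and test nothing. A match to a pattern does not show that p53 bound there.

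Ccng1, an atypical cyclin that directs a phosphatase to Mdm2, was more clearly higher than Cdkn1a in CNT-2. Its probes read 0.01 and -0.02 in control, 0.27 and 0.29 in CNT-1, and 1.29 and 1.39 in CNT-2. The 2 probes stayed close to each other in every column. Ccng1 lay 0.29 ± 0.04 above control in CNT-1 and 1.35 ± 0.09 in CNT-2 (probe SD, 2 probes). The CNT-2 value fell below the 2-fold line under 2 of the scalings tried, at 0.91 with the 75th percentile of each column subtracted and at 0.82 after quantile normalization.

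The 250 bases before the Ccng1 start (chr10:25684877-25685126, minus strand, GRCr8, RefSeq) are shown for comparison with Cdkn1a, with the p53 decamer and 3 CCAAT boxes, 1 of them on the opposite strand as ATTGG, in capitals.
Ccng1: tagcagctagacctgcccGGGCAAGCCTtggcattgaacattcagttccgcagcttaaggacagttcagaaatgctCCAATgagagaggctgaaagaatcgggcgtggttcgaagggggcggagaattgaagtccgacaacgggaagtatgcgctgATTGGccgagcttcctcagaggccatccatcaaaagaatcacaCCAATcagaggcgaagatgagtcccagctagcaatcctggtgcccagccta
CCAAT on either strand was found in 6 of 9 member promoters and in 34.0% of all promoters. The p53 decamer of Ccng1 begins 232 bases before the start, further out than that of Cdkn1a.

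Plk2, a polo-like kinase that acts on centriole duplication and is induced by stress, went with CNT-1 and not with CNT-2. Its probe read 0.11 in control, 1.19 in CNT-1 and 0.36 in CNT-2. It was the member furthest above control in CNT-1, at 1.07, where 0.96% of all genes were higher, and in CNT-2 it lay at 0.24. Directly, CNT-2 was 0.83 below CNT-1 for Plk2, and 93.5% of all genes had a greater CNT-2 minus CNT-1 difference. That difference passed the 2-fold line under 3 of 7 alternatives, at -1.21 with 75th percentile, -1.10 with spike-in and -1.40 with quantile scaling. The CNT-1 value stayed past the 2-fold line under all 8 alternatives, between 1.02 and 1.37. The CNT-2 value had no settled sign, at -0.20 with the 75th percentile subtracted and -0.04 after quantile normalization. Plk2 was the 1 member whose control value lay further than 0.1 from 0, and the gene rested on 1 probe. The control probe for background read 0.16 in the control column, -0.11 in CNT-1 and 0.05 in CNT-2.

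The Plk2 promoter (chr2:43702286-43702535, plus strand, GRCr8, RefSeq) is shown as the promoter of the member that differed most from the others. Capitals mark the palindrome TGACGTCA, the cyclic AMP response element, which begins 66 bases before the start.
Plk2: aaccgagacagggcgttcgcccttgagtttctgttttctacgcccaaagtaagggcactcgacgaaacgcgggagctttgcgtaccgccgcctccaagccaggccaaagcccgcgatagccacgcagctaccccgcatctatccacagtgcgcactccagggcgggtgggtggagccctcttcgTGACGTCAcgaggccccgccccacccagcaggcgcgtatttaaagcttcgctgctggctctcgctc
TGACGTCA, chosen after the sequences were seen, was found in 2 of 9 member promoters and in 1.59% of all promoters. The 2 were those of Plk2 and of the unmeasured Btg2. Neither the p53 decamer nor CCAAT was found in these 250 bases.

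Mdm2, the ubiquitin ligase that marks p53 for degradation, was higher after both exposures without passing the 2-fold line as a gene. Its probes read -0.008 and -0.02 in control, 0.26 and 0.24 in CNT-1, and 1.15 and 0.60 in CNT-2. The probes were nearly the same in control and CNT-1 and parted in CNT-2, where 1 of them lay 1.16 and the other 0.62 above control. The gene was 0.26 ± 0.009 above control in CNT-1 and 0.89 ± 0.38 in CNT-2 (probe SD, 2 probes). With the 75th percentile subtracted the CNT-2 difference was 0.45. In CNT-2 minus CNT-1 the gene was at 0.63 ± 0.37. Both probes carry the same reference transcript, and which part of it each probe reads was not analysed here.

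Phlda3, which competes with Akt for membrane lipids and so restrains survival signalling, was the 1 member below control in CNT-2. Its single probe read 0.02 in control, 0.10 in CNT-1 and -0.35 in CNT-2. The differences from control were 0.08 in CNT-1 and -0.38 in CNT-2, and 79.6% of all genes lay higher than Phlda3 in the latter comparison. Its sign held under all 8 alternatives in both comparisons, with CNT-2 values between -0.81 and -0.23, none of them past the 2-fold line.

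Ddb2, a subunit of the complex that recognises ultraviolet damage in chromatin for nucleotide excision repair, stood high after both exposures. Its probe read 0.005 in control, 1.00 in CNT-1 and 2.38 in CNT-2. As reported, the order of the 3 columns was that of Cdkn1a, Ccng1 and Mdm2, with larger steps. The Ddb2 step from CNT-1 to CNT-2 was 1.38, but 0.072 after quantile normalization. That scaling, run on differences, gives the columns the same spread by construction, so it cannot test the step between them. Under that scaling the step was 0.285 for Ccng1, 0.065 for Mdm2 and -0.097 for Cdkn1a. In CNT-1 the difference was 0.999, just under the 2-fold line, and it passed the line under 4 of 8 alternatives, with a range of 0.94 to 1.34. In CNT-2 the difference was 2.38, and 1.80% of all genes were further above control. The CNT-2 value ranged from 1.41 to 2.38 over the alternatives and stayed past the line in all 8. Of the listed genes for the ubiquitin ligase that its protein joins, named after their values were seen, the adaptor Ddb1 was at -0.24 and the RING subunit Rbx1 at 0.12 in CNT-2. The scaffold Cul4a was at -0.33 and its relative Cul4b at -1.11 ± 0.42 (probe SD, 2 probes).

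The 3 Gadd45 genes were near control or little above it in CNT-1 and high in CNT-2. Gadd45a read -0.01 in control, -0.12 in CNT-1 and 2.67 in CNT-2. Gadd45b read -0.007, -0.03 and 1.63, and Gadd45g read 0.007, 0.41 and 1.89, in the same order of columns. For Gadd45a and Gadd45b the CNT-1 column lay with the control, and for Gadd45g it lay between control and CNT-2. Against control CNT-2 was 2.68 higher for Gadd45a, the largest difference of any member, 1.63 higher for Gadd45b and 1.88 higher for Gadd45g. Of all genes 1.41% were further above control than Gadd45a, 4.04% than Gadd45b and 3.08% than Gadd45g. Each of the 3 genes had 1 probe, so no probe SD is available for them.

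The CNT-2 differences of the Gadd45 genes stayed at least 1 unit above control under all 8 alternatives. Their lowest values, 1.69 for Gadd45a, 1.02 for Gadd45b and 1.09 for Gadd45g, came from quantile normalization. In CNT-1 the difference was -0.11 for Gadd45a and -0.02 for Gadd45b, and neither sign was settled. Gadd45a turned to 0.07 after quantile normalization, and Gadd45b turned positive under column median, spike-in and quantile scaling, reaching 0.14 at most. Gadd45g was 0.40 above control in CNT-1, with 6.82% of all genes higher, and kept its sign under all 8 alternatives.

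The Gadd45 promoters are shown because the 3 genes were high in the same column. For Gadd45a (chr4:97486800-97487049, minus strand) and Gadd45g (chr17:13530352-13530601, minus strand) these are the 250 bases before the start. For Gadd45b (chr7:9430793-9430822, minus strand) a stretch of 30 bases is given, since its window lies inside a longer transcript of the gene. All are GRCr8 from RefSeq. Capitals mark, in Gadd45a, the octamer ATTTGCAT, CCAAT and a p53 decamer. In Gadd45g they mark CACGTG, the octamer joined to the overlapping pattern TGATGNAA on the opposite strand, and CCAAT. In Gadd45b they mark CCAAT.
Gadd45a: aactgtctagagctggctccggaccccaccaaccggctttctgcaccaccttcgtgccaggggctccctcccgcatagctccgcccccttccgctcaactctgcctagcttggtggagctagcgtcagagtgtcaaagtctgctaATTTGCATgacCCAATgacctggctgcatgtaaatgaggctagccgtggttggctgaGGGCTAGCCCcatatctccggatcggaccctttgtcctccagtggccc
Gadd45g: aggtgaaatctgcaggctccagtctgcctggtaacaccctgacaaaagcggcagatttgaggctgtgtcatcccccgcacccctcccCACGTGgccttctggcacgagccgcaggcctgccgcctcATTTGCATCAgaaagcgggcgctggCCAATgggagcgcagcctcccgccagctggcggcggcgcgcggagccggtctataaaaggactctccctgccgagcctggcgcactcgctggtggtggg
Gadd45b: tttgtgcctccaCCAATggatgggcggtgc
The octamer begins 105 bases before the start in Gadd45a and 124 bases before it in Gadd45g, followed in each by a CCAAT box on the same strand. Among 9 member promoters these 2 had the octamer, against 1.56% of all promoters. Gadd45b had no octamer in its 250 bases, but 2 CCAAT boxes and a CACGTG, which was present in 2 of 9 member promoters and 5.59% of all. TGATGNAA, the core of amino acid response elements, was found in 1 of 9 member promoters and 3.40% of all, and TGANTCA, the AP-1 site, in 0 of 9 and 6.34%. Both strands were searched for each pattern, which was chosen after the sequences were seen.

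**Figure D2:**
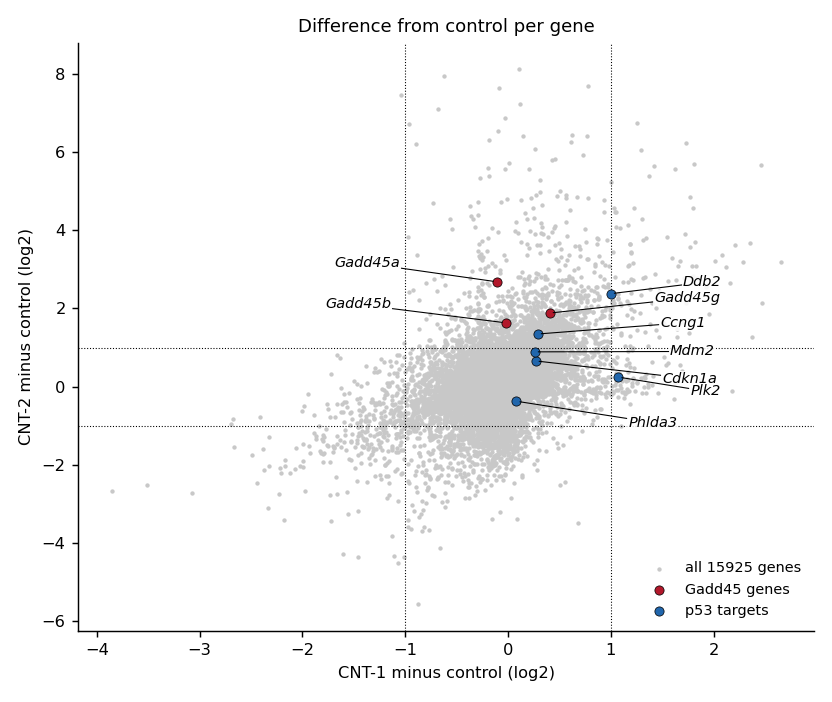
Difference from control in CNT-1 (x axis, log2) and CNT-2 (y axis, log2) for all 15925 genes (grey), p53 targets (blue) and Gadd45 genes (red), with dotted lines at 1 unit. Gadd45a lies at -0.11 and 2.68, Ddb2 at 0.999 and 2.38, and Plk2 at 1.07 and 0.24; both axes share the control column.

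Set directly against CNT-1, CNT-2 was at least 1 unit higher for 5 of 9 members, against 9.32% of all genes, and at least 1 unit lower for none, against 4.65%. The difference was above 0 for 7 of 9 members and for 63.3% of all genes. The median over the members was 1.06, beside 0.15 over all genes. Gadd45a was 2.79 higher, Gadd45b 1.65, Gadd45g 1.48, Ddb2 1.38 and Ccng1 1.06 ± 0.06 (probe SD, 2 probes). Cdkn1a was 0.39 ± 0.14 higher and Mdm2 0.63 ± 0.37 (probe SD, 2 probes each). Plk2 and Phlda3 were lower, at -0.83 and -0.46. This comparison depended on scale more than those with control. The count of higher members was 3 with the 75th percentile subtracted, beside 4.82% of all genes. It was 1, Gadd45a, after quantile normalization, beside 2.74%, and Cdkn1a turned to -0.10 under that scaling. Plk2 became 1 member past the line on the lower side under 75th percentile, spike-in and quantile scaling. Of all genes 9.81%, 7.82% and 2.08% were that much lower under these 3 scalings. The SD over gene probes was 0.15 in the control column, 0.37 in CNT-1 and 0.89 in CNT-2. Quantile normalization was run over all probes of the array and gives the columns the same distribution over those. Smaller CNT-2 minus CNT-1 differences are thus partly built into that scaling.

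**Figure D3:**
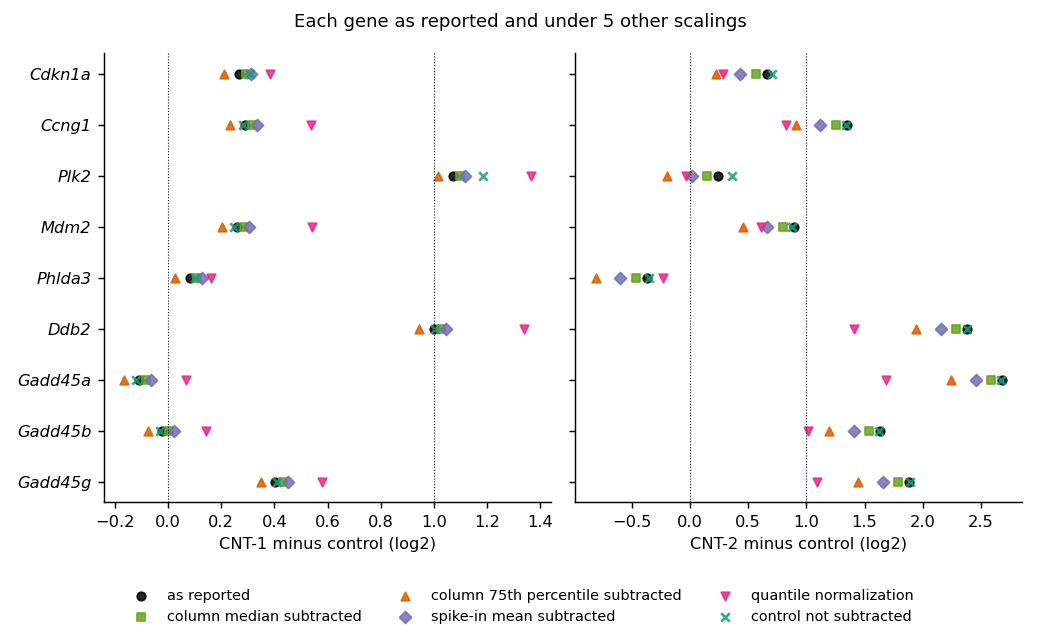
Difference from control in CNT-1 (left, log2) and CNT-2 (right, log2) of each measured gene as reported (black) and under 5 other scalings of the columns, with dotted lines at 0 and 1. The Gadd45 genes and Ddb2 stay past 1 in CNT-2 in every scaling shown, whereas Ccng1 goes to 0.91 and 0.82 in 2 of them.

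Genes around p53 other than these members were taken from further lists, chosen with earlier results of these data known. Of 12 regulators of p53 listed, 8 were measured. None was 1 unit from control in CNT-1, where 1.16% of all genes were higher and 2.15% lower by that much. All 8 were below 0, between -0.25 and -0.01 (median -0.14), beside 9197 of all 15925 genes. Above 0 were 2 of 8 with column median or spike-in centring. After quantile normalization 5 of 8 were, and the median became 0.08. In CNT-2 4 of 8 were at least 1 unit lower, against 6.56% of all genes, and none higher, with a median of -0.78. Chek1, the checkpoint kinase of stalled replication, was at -1.76, and the p53 ubiquitin ligase Rchy1 was at -1.68. Atm, the kinase activated by double-strand breaks, was at -1.59 ± 0.24 (probe SD, 2 probes). The fourth was the checkpoint kinase Chek2 at -1.44, named after its value was seen. Mdm4, the relative of Mdm2 that inhibits p53, was at -0.16 in CNT-1 and 0.08 in CNT-2. Quantile normalization left 1 of the 4, Chek1, past the line in CNT-2, beside 3.42% of all genes lower under that scaling.

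Of 15 listed targets of p53 in apoptosis 12 were measured, and 0 were at least 1 unit higher or lower in CNT-1 or CNT-2. Of all genes 10.1% were higher and 6.56% lower by that much in CNT-2, and 1.16% and 2.15% in CNT-1. Their values ran from -0.27 to 0.45 in CNT-1, with a median of 0.04, and from -0.60 to 0.89 in CNT-2, with a median of 0.01. The CNT-2 median turned negative under column median, 75th percentile, spike-in and quantile scaling, and the CNT-1 median under 75th percentile centring. The pore-forming protein Bax was at -0.26 ± 0.01 (probe SD, 2 probes) and the BH3-only protein Bbc3 at -0.60 in CNT-2. The BH3-only protein Bid was highest at 0.89 ± 0.01 (probe SD, 2 probes). These 3 were named after their values were seen. With the 75th percentile subtracted 1 gene, Bbc3, passed the line in CNT-2, at -1.04, beside 14.4% of all genes lower.

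Of 22 other p53 targets of arrest, repair and metabolism 18 were measured. In CNT-1 1 was at least 1 unit higher, beside 1.16% of all genes, and none lower, beside 2.15%. In CNT-2 4 were higher, beside 10.1% of all genes, and 2 lower, beside 6.56%. The median was 0.06 in CNT-1 and -0.12 in CNT-2. With the 75th percentile subtracted the CNT-2 counts were 3 higher and 4 lower, beside 5.26% and 14.4% of all genes. Gdf15, a stress-induced cytokine, read -0.02 in control, 1.71 in CNT-1 and 6.22 in CNT-2 and was the 1 gene past the line in both, at 1.73 and 6.24. Sesn2, a sestrin that restrains mTORC1 signalling, was at 0 in CNT-1 and 1.63 in CNT-2. Plk3, a stress-responsive relative of Plk2, was at 0.56 ± 0.01 and 1.57 ± 0.14 (probe SD, 2 probes). Ddit4, an inhibitor of mTORC1, was at 0.59 and 1.02. On the lower side in CNT-2 were Gtse1, a mitotic protein that restrains p53, at -3.40, and Ercc5, an endonuclease of nucleotide excision repair, at -1.21. Quantile normalization left Gdf15 as the 1 higher gene and Gtse1 as the 1 lower gene of this list in CNT-2. Under that scaling 5.42% of all genes were higher and 3.42% lower.

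Genes listed as relatives of the members, by gene family or by a shared stem of the symbol, lay on both sides of control in CNT-2. The list is thus wider than the families: its Cdkn2 genes are not of the family of Cdkn1a, and Gadd45gip1 is not a Gadd45 gene. All 17 listed were measured, with none 1 unit from control in CNT-1, where 1.16% of all genes were higher and 2.15% lower. In CNT-2 4 were higher, beside 10.1% of all genes, and 3 lower, beside 6.56%. Their median was 0.09 in CNT-1 and -0.39 in CNT-2. Among polo-like kinases Plk3 was higher, as given above, whereas the mitotic kinase Plk1 was at -1.20 ± 0.07 (probe SD, 2 probes) and the centriole kinase Plk4 at -1.84 in CNT-2. Among inhibitors of cyclin-dependent kinases Cdkn2b was at 1.23 and Cdkn2d at 1.04, and Cdkn2c at -1.53. The family relatives of Cdkn1a, named after their values were seen, did not pass the line. Cdkn1b was at -0.72 ± 0.09 (probe SD, 2 probes) and Cdkn1c at -0.19 ± 0.33 (probe SD, 4 probes) in CNT-2. Phlda1, a relative of Phlda3 with a pleckstrin homology-like domain, was at -0.46 ± 0.03 in CNT-1 and 1.69 ± 0.28 in CNT-2 (probe SD, 2 probes), the opposite side from Phlda3 in each column. With the 75th percentile subtracted 2 genes were higher and 7 lower in CNT-2, beside 5.26% and 14.4% of all genes. No gene of this list was past the line in CNT-2 after quantile normalization, where 5.42% of all genes were higher and 3.42% lower.

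Genes listed as binding partners of the members lay mostly below control in CNT-2. The list also holds Akt1, a competitor of Phlda3, and Cnot7 and Cnot8, partners of the unmeasured Btg2. Named after their values were seen, Akt1 was at -0.22, Cnot7 at 0.75 ± 0.15 (probe SD, 2 probes) and Cnot8 at -0.04 in CNT-2. Of 22 listed 21 were measured, 7 of them at least 1 unit lower, beside 6.56% of all genes, and none higher, beside 10.1%. Below 0 were 18 of the 21, beside 7391 of all 15925 genes, and the median was -0.49. In CNT-1 none was 1 unit from control, beside 1.16% of all genes higher and 2.15% lower. The CNT-1 median was 0.05, which became -0.003 with the 75th percentile subtracted. The cyclin Ccne2, a partner of Cdk2 that p21 inhibits, was at -1.66 ± 0.10 and its relative Ccne1 at -1.15 ± 0.13 in CNT-2 (probe SD, 2 probes each). Mapk14, the p38 kinase downstream of the Gadd45 partner Map3k4, was at -0.36 ± 0.10 in CNT-1 and -1.42 ± 0.46 in CNT-2 (probe SD, 3 probes). The count of lower genes was 10 with the 75th percentile subtracted, beside 14.4% of all genes under that scaling. It was 0 after quantile normalization, beside 3.42%, and the median was then -0.23. Many of these genes belong to the cell division machinery, and the part that the growth state of the cells had in the values of the members was not tested.

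**Figure D4:**
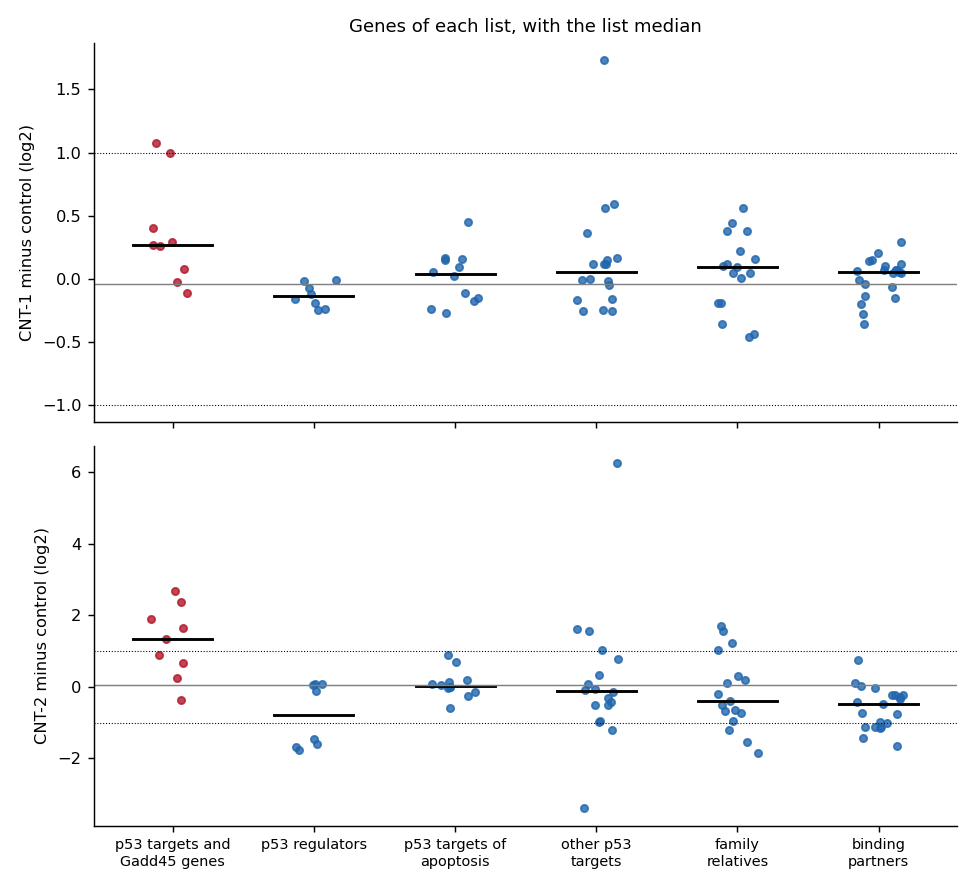
Difference from control (y axis, log2) in CNT-1 (top) and CNT-2 (bottom) for each measured gene of 6 lists, with black bars at list medians, a grey line at the median of all genes and dotted lines at 1 unit. The first list, the p53 targets and Gadd45 genes, has medians of 0.27 and 1.35, and the binding partners have medians of 0.05 and -0.49.

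Probes for added spike-in RNA lay 0.23 ± 0.10 above control in CNT-2 and at -0.05 ± 0.07 in CNT-1 (SD over 10 probes), so the CNT-2 column was higher for RNA that does not come from the cells. Among control probes of unstated purpose labelled DCP, those numbered up to 5 averaged 0.22 ± 0.08 (SD, 11 probes) and those numbered higher averaged -0.18 ± 0.26 (SD, 7 probes) in CNT-2. Of 12 measured alveolar macrophage markers 1 was at least 1 unit higher in CNT-2, Fabp4 at 3.96, and 3 were lower, Mrc1, Csf2rb and Csf1r, from -2.24 to -1.25. Of 16 measured markers of epithelium, endothelium, fibroblasts and lymphocytes 2 were higher in CNT-2, Krt18 and Dcn, and 3 lower, Vwf, Nkg7 and Cd79a. Beside these counts stand 10.1% of all genes higher and 6.56% lower. Several of the marker values varied widely between 2 probes, with a probe SD of 0.60 for Csf1r, 0.52 for Krt18 and 1.66 for Vwf, the last at -1.73, against 0.13 for Mrc1. In CNT-1 0 macrophage markers were higher and 1 was lower, Car4 at -1.085, which read 1.01 in the control column. Of the other markers 1 was higher in CNT-1, Epcam at 1.61, and none lower. Beside these CNT-1 counts stand 1.16% of all genes higher and 2.15% lower. The part of these differences in the values of the members was not tested.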

How the data were processed

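NR8383 cells were profiled on 1-colour Cy3 Agilent arrays. Per the submitters' processing notes, the scans went through Agilent Feature Extraction 10.7.3.1. The deposited table holds 1 column per group with 41103 probes. Its values are log2 differences as deposited by the authors, where log2 is presumed from their range and higher was taken as more RNA. The sources used here do not state centring or normalization. The median over all probes was 0.01 in the control column, -0.04 in CNT-1 and 0.06 in CNT-2. A column may be 1 array or an average of several. The number of arrays limits the precision.

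Probes were named from the platform annotation, 20932 with 1 symbol, 0 with several and 20171 with none. RefSeq accessions (GRCr8) named 17424 probes, 3105 kept a current symbol, 398 older symbols were updated and 5 were unmatched. Differences were taken per probe and averaged per gene with no filter (Python 3.11.15, pandas 2.3.3, tested on simulated data). A gene was counted at 1 log2 unit or more. Probes reading within 0.02 of the negative-control probe in the control column were called background-like, which 14.5% of gene probes and no member were. All members were named. From the further lists, a gene was named if it was Mdm4, or was among the 4 highest or 3 lowest of its list in CNT-2 and at least 1 unit from 0 in any comparison. Markers were named by their counts. Members and lists were chosen with earlier results of these data known. Promoters and gene starts are from RefSeq, GRCr8, with 9 of 10 members matched, all but Ddb2.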

Additional observations from a re-analysis of the deposited data

How the results depend on the processing

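The members were recomputed with each column centred on its median, its 75th percentile or its spike-in probes, after quantile normalization, with the median over probes, without background-like probes, by platform symbol only, without subtracting the control, and, for counts, at 1.5-fold. The count in CNT-1 went from 1 to 2 under column median, spike-in and quantile scaling and without subtracting the control, where Ddb2 joined Plk2, and also at 1.5-fold. In that order 1.24%, 1.31%, 3.68%, 1.55% and 3.86% of all genes were higher in CNT-1, against 1.16% as reported. The median in CNT-1 was 0.54 after quantile normalization. In CNT-2 the count was 4 to 7 against 5, and the median was 0.91 with 75th percentile, 1.12 with spike-in and 0.82 with quantile scaling. The count of 4 came with 75th percentile and quantile scaling, where 5.26% and 5.42% of all genes were higher. In CNT-2 minus CNT-1 the count was 3 with 75th percentile and 1 with quantile scaling, beside 4.82% and 2.74% of all genes. The median there was 0.68 with 75th percentile, 0.79 with spike-in and 0.072 with quantile scaling. The other 35 values stayed within 1.5 times the count, or within the median probe SD over genes (0.08 in CNT-1, 0.19 in CNT-2 and 0.17 between them) for medians, and no median changed sign. At 1.5-fold 20.2% of all genes were higher in CNT-2. Quantile scaling equalises column spreads by construction, which lowers CNT-2 and raises CNT-1 differences. It was run on deposited differences and not on expression levels, so it cannot decide whether a step between columns is real. CNT-2 minus CNT-1 has no value without the control subtracted that differs from the reported one. No paired analysis was possible because each group has 1 column.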

Other observations

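Gadd45a was the member furthest above control in CNT-2, and the genes outside the list nearest to it in their differences of CNT-1 and CNT-2 from control were sought by Euclidean distance, over 3 columns. Nearest was Gcnt2, which encodes a glycan-branching transferase, at -0.21 in CNT-1 and 2.65 in CNT-2 with a distance of 0.10. Next came Tnfrsf1b, a receptor for tumour necrosis factor, at -0.19 and 2.61 with a distance of 0.11, and Tm4sf20, a membrane protein, at -0.25 and 2.66 with a distance of 0.14. Each rested on 1 probe. Gcnt2 read 0.23 in the control column, and the Tm4sf20 probe was background-like there at 0.15. With 3 columns, such nearness only says that these genes had like values in these arrays.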
